A study of Rattus norvegicus with 6 samples.

Results

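The genes described here belong to the Sox, Fox, Hox, Tbx, Klf, Gata and Ebf families of transcription factors, which set and hold the identity of cell lineages. They were taken by prefix from the gene names of a single-cell count table of rat lung, leaving out the thromboxane genes that share the letters Tbx. The rule gave 92 of 16383 genes, of which 87 are members of the families: 28 Fox, 15 Hox, 14 Sox, 11 Tbx, 11 Klf, 5 Gata and 3 Ebf genes. The other 5, Foxred1, Foxred2, Gatad1, Gatad2a and Gatad2b, share the first letters and were not counted as members of the families. The questions were which class of lung cell held each factor, and which factors differed between lungs injured with bleomycin (BLM), a drug that damages the alveoli and leaves fibrosis, and control lungs.

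Lungs were collected on day 28 from 3 Sprague Dawley rats that had received BLM into the trachea once, at 5 mg/kg (BLM-treated group), and from 3 that had received saline in its place (control group). The labels name no other difference between the groups. Cells from a small piece of lung were captured with the BD Rhapsody microwell system, which tags each captured mRNA molecule with a unique molecular identifier (UMI), and each rat gave 1 library. Fibrosis after BLM is patchy, so that a small piece may not stand for the whole lung.

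Factors of these families bind DNA and act in combination. Sox7, Sox17 and Sox18 are closely related and known from vessels, Sox2 from conducting airways and Sox9 from the distal tips of the developing lung. Foxf1 is known from lung capillaries and mesenchyme, Foxa2 from lung epithelium, Foxp3 from regulatory T cells, and the Foxo genes from quiescence and stress. Gata2 is known from endothelium and mast cells, Gata3 from T cells and type 2 lymphoid cells, Gata4 from mesothelium, Tbx21 from NK cells and type 1 T cells, Tbx4 and Tbx5 from lung mesenchyme and Ebf1 from B cells. Hox genes keep position along the body axis, and Klf factors bind GC-rich sites in growth, quiescence and activation of many cells.

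The BLM-treated lungs gave 15009 cells with 33444381 UMIs, against 10538 cells with 23608949 UMIs from control lungs. The median cell held 1253 to 1565 UMIs in BLM-treated rats and 1066 to 1840 UMIs in control rats. Of 25232 cell barcodes, 314 occurred in more than 1 rat. Cells were clustered without the factor genes, and the 28 clusters gave 23 classes, 18 named after the cells whose marker genes they resemble (EC for endothelial-like cell, AT2 for alveolar type 2-like cell) 4 called by a leading gene (the Gjb2, Il2ra, Ccl21 and Mcpt8l3 clusters) and 1, a stromal one, by its number (cluster 18). In 17 classes the shares of the rats of the groups did not overlap, with p = 0.1 in a two-sided exact permutation test, the smallest that 3 rats against 3 allow. ECs took 11.8% ± 3.64 of the cells of BLM-treated rats and 1.90% ± 1.24 of those of control rats (SD, n = 3 each), fibroblasts 6.32% ± 2.78 of the cells of BLM-treated rats and 0.435% ± 0.300 of those of control rats, and AT2 cells 0.752% ± 0.563 of the cells of BLM-treated rats and 7.18% ± 1.09 of those of control rats. ECs numbered 383, 673 and 616 cells in the BLM-treated rats and only 28, 41 and 150 in the control rats.

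The 92 genes taken by the rule together took 0.214%, 0.192% and 0.237% of the UMIs of BLM-treated rats, against 0.150%, 0.177% and 0.131% in control rats, in all 104083 UMIs. Levels are given as CPM, the UMIs of a gene for every 1000000 UMIs of the cells of a class in a rat, and a rat entered a class with at least 10 cells. They are compared within a gene across classes and rats, not between genes. All 92 genes had at least 1 UMI, and the 64 with at least 100 were assigned to the class with the highest mean CPM over rats. ECs and cluster 18 led 8 genes each, tuft cells 7, and smooth muscle cells or pericytes 5. The tuft class had 61 cells, 7 of them of BLM-treated rats, so its CPM come from control rats alone. It held 0.739% of the UMIs of Gata6, 0.516% of Foxp4 and 0.463% of Klf11. Other classes led all 7 in cells of at least 500 UMIs. These included Sox9, which in all cells stood 22.2-fold above the next class. A class could lead only if more than 1 rat had at least 10 of its cells. Whether the tuft class still met this minimum there was not checked, so the change of leader does not bear on its level. In 22 of the 64 the leading class stood at least 2-fold above the next, and in 12 it held more than 50% of the UMIs of the gene. The leading class within each group was read only among classes with enough cells in more than 1 rat of both groups. This left out the tuft, Ccl21 and ciliated classes. So read, it was the same in both groups of rats for 40 of 64 genes. For Sox2 and Sox9 it was club cells in both, which is not the class that led over all rats. When cells were thinned to 500 UMIs and the share of cells with a UMI was read in place of CPM, 41 of 64 genes kept their class.

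**Figure D1:**
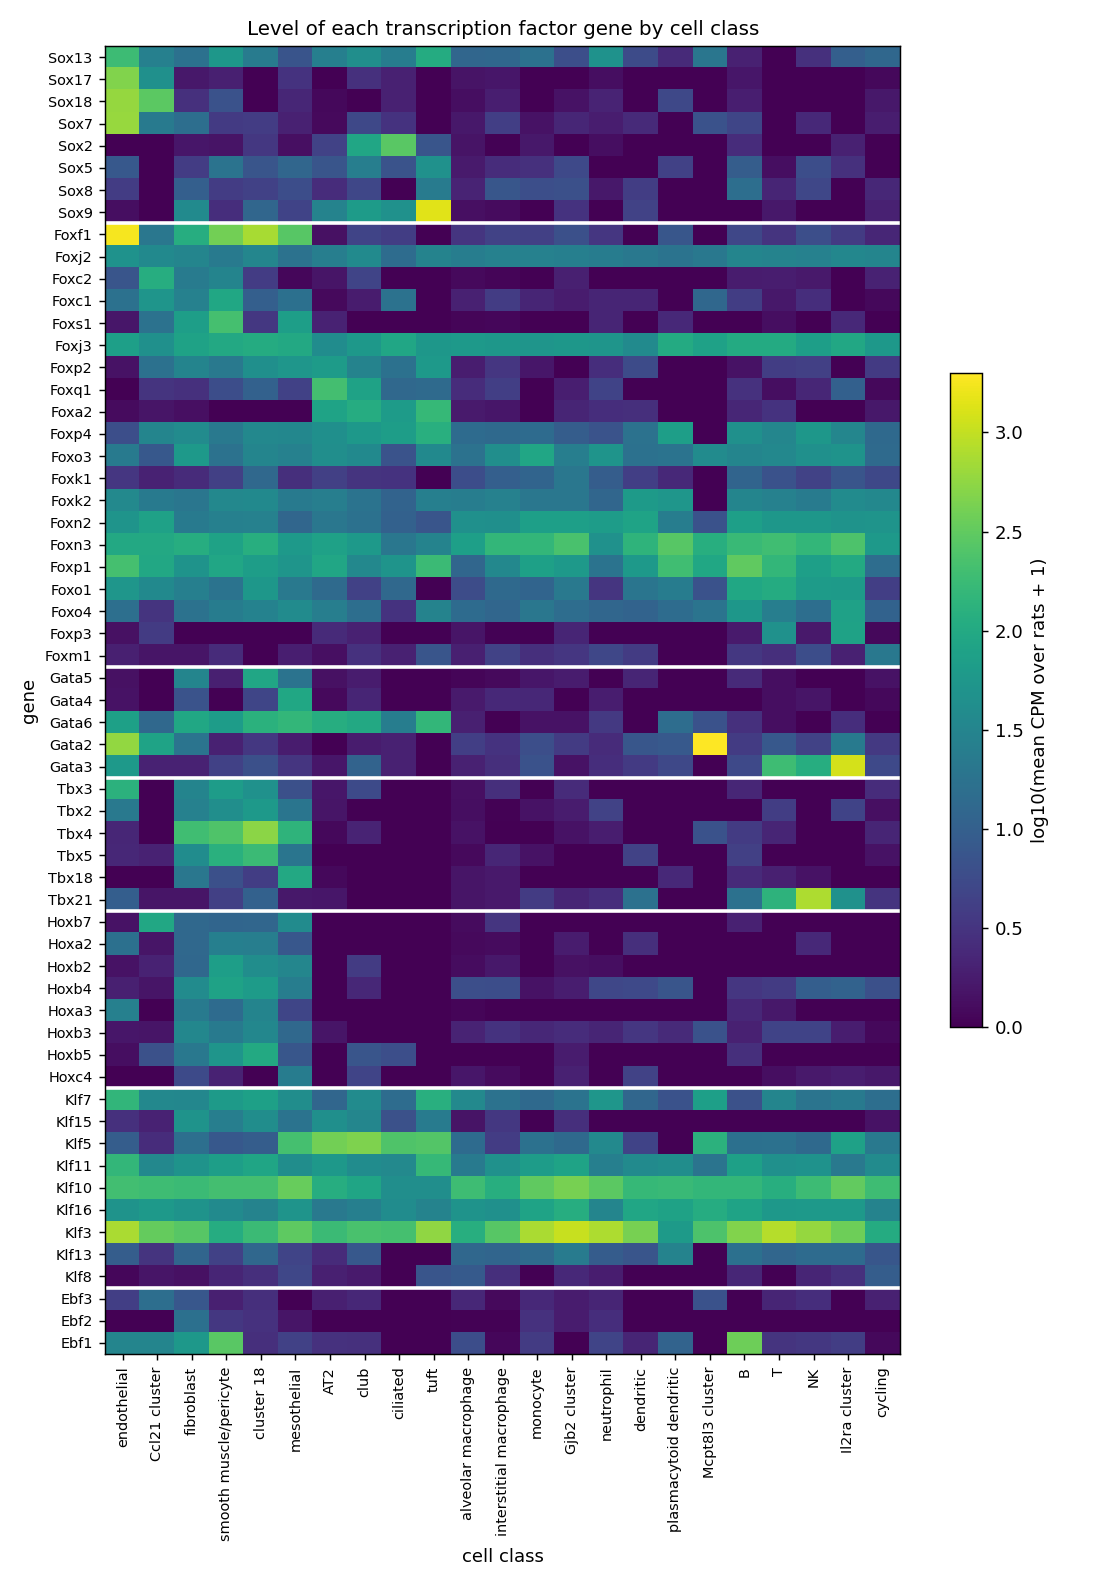
Mean level of the factors with at least 100 UMIs (one line per gene) in each cell class (columns), shown as the log10 of the mean CPM over rats plus 1. Sox7 and Sox17 are bright in ECs, Tbx21 in NK cells, Gata3 in the Il2ra cluster and Gata2 in the Mcpt8l3 cluster, while Klf3 and Foxn3 are seen in every column.

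In ECs the vessel group of Sox genes stood apart. Sox17 averaged 466 CPM over rats, and ECs held 97.7% of its UMIs. Sox7 averaged 620.1 CPM, 28.8-fold above the next class, and Sox18 603 CPM, 2.07-fold above it. For all 3 the next class was the Ccl21 cluster, of 240 cells, led by genes of lymphatic ECs and of red blood cells. A finer clustering of all cells, not limited to this cluster, gave 105 lymphatic ECs and 149 red blood cells. The lymphatic ECs held Sox18 at 356 CPM, Foxc2, which is known for lymphatic valves, at 139 CPM, and Hoxb7 at 143 CPM. Foxf1 averaged 1778 CPM in ECs, 2.45-fold above cluster 18. Sox13, Tbx3, Klf7 and Foxj2 were also highest in ECs, Sox13 at 182 CPM and Tbx3 at 130.4 CPM. Gata2 stood at 578 CPM in ECs and at 1954 CPM in the Mcpt8l3 cluster, whose leading genes are mast cell and basophil proteases.

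Of the Tbx genes with at least 100 UMIs, 4 of 6 were highest in cluster 18 or in mesothelial cells. Tbx4 averaged 537 CPM in cluster 18, 2.21-fold above smooth muscle cells or pericytes, and Tbx5 176 CPM, 1.42-fold above them. Tbx2, known from lung mesenchyme, was also highest there at 58.3 CPM. Of the 15 Hox genes 8 had at least 100 UMIs. Hoxa3, Hoxb3 and Hoxb5 led in cluster 18, Hoxa2, Hoxb2 and Hoxb4 in smooth muscle cells or pericytes, Hoxc4 in mesothelial cells and Hoxb7 in the Ccl21 cluster. Hoxb5, known for branching of the developing lung, stood at 100.4 CPM, while Hoxb3 stood at 32.5 CPM in cluster 18 and 32.4 CPM in fibroblasts. Foxs1, known from pericytes, averaged 210.2 CPM in smooth muscle cells or pericytes, 3.02-fold above fibroblasts. In mesothelial cells, the lining of the lung surface, Gata4 averaged 90.9 CPM, 15.2-fold above the next class, and Tbx18 98.4 CPM, 5.03-fold above it. Fibroblasts led Ebf2, with 150 UMIs in all, at 15.5 CPM, 6.30-fold above the next class.

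In the epithelium Klf5, a factor of epithelial growth, averaged 461 CPM in club cells, the secretory cells of the airway, and 389 CPM in AT2 cells. AT2 cells held 69.0% of the UMIs of Foxq1. Foxa2 averaged 161 CPM in tuft cells, the chemosensory cells of the airway, and 110.3 CPM in club cells, while Foxa1 had 57 UMIs in all. In 70 cells that a finer clustering named alveolar type 1 cells, 11 of BLM-treated and 59 of control rats, Foxa2 stood at 219 CPM and Klf5 at 505 CPM. Sox2 stood at 288, 337 and 240.3 CPM in ciliated cells of the BLM-treated rats, and no control rat had enough of these cells. Sox9 stood at 1207, 1743 and 1291 CPM in tuft cells of the control rats, against a mean of 63.7 CPM in club cells, and BLM-treated rats had 7 tuft cells in all.

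Among the lymphoid factors Tbx21 averaged 787 CPM in NK cells, 5.90-fold above T cells, and had a UMI in 50.7% of the NK cells of BLM-treated rats and 50.6% of those of control rats. In B cells 0.914% and 0.640% of the cells of BLM-treated and control rats had a Tbx21 UMI. Their median depths were 598 and 574 UMIs, against 1019 and 1012.5 UMIs in NK cells. Gata3 averaged 1236 CPM in the Il2ra cluster, 6.67-fold above T cells. Foxp3 averaged 78.9 CPM there and 45.1 CPM in T cells, on 166 UMIs in all. Ebf1 averaged 373 CPM in B cells and 283 CPM in smooth muscle cells or pericytes, which is 1.32-fold. B cells led Foxp1 at 311 CPM, and T cells Foxo1 at 106 CPM, 1.15-fold above B cells.

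Other factors were spread over the lung. Klf3, Klf10, Klf11, Klf16, Foxj2, Foxj3, Foxn3 and Foxp1, with Gatad1, Gatad2a and Gatad2b, exceeded 10 CPM in each of the 23 classes. Klf3 had the most UMIs of all members, 16758, and averaged 1043 CPM in the Gjb2 cluster, 844 CPM in T cells and 786 CPM in neutrophils, with its lowest value among macrophages in the alveolar ones (118 CPM). Foxn3 averaged 275 CPM in plasmacytoid dendritic cells, 1.17-fold above the Il2ra cluster. Foxm1, a driver of mitosis, averaged 19.9 CPM in cycling cells, 3.06-fold above the next class, on 128 UMIs in all.

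The first comparison was over all cells of a rat. In such sums fewer cells of a type and less RNA per cell cannot be told apart. Of 74 members that passed the filter on low counts 21 differed between the groups, 17 higher and 4 lower in BLM-treated lungs (quasi-likelihood test of edgeR, p-values adjusted over all genes after Benjamini and Hochberg, threshold 0.05), against 17.4% of all 13346 genes tested (11.1% higher and 6.33% lower). The rats of the groups did not overlap for 33 of the 74 members, against 36.0% of all genes. The median log2 fold change was 0.42 over the 74 members and -0.01 over all genes.

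The vessel factors showed the greatest differences. Sox17 had 50.9, 39.4 and 82.3 CPM in BLM-treated rats, against 1.06, 4.40 and 8.46 CPM in control rats (log2 fold change 3.46, standard error 0.57, edgeR adjusted p = 0.00763). Sox7 had 85.6, 57.7 and 96.4 CPM in BLM-treated rats, against 1.58, 7.25 and 11.3 CPM in control rats (log2 fold change 3.45, standard error 0.53, edgeR adjusted p = 0.00568). Sox18 had 69.8, 38.9 and 70.4 CPM in BLM-treated rats, against 2.51, 7.51 and 15.1 CPM in control rats (log2 fold change 2.69, standard error 0.54, edgeR adjusted p = 0.0148). In all 3 genes every BLM-treated rat lay above every control rat. Of the other factors with high levels in ECs, Tbx3 rose by 1.98, Gata2 by 1.84, Foxf1 by 1.41 and Klf7 by 0.53 on the log2 scale, while Sox13, at 0.41 (edgeR adjusted p = 0.324), and Foxj2, at 0.14 (0.634), did not pass. Among factors that were highest in a stromal class or in mesothelial cells, Hoxc4 rose by 2.24, Foxc1 by 2.14, Foxs1 by 2.10, Tbx2 by 1.74 and Hoxb4 by 1.73. Foxc2 and Hoxb7, highest in the Ccl21 cluster, rose by 2.44 and 2.38, and Ebf1, highest in B cells, by 1.31. Gata6, at 154 CPM in tuft cells and 152 CPM in mesothelial cells, rose by 1.10.

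Among airway and alveolar factors Sox2 had 8.04, 9.58 and 5.48 CPM in BLM-treated rats, against 1.85, 2.07 and 1.73 CPM in control rats (log2 fold change 2.01, standard error 0.32, edgeR adjusted p = 0.00622). Those that fell were mostly epithelial, Foxa2 by 1.63, Foxq1 by 1.57 and Klf5 by 0.79 on the log2 scale, along with Klf8 by 1.10. The share of AT2 cells was lower, and those of ECs, fibroblasts, smooth muscle cells or pericytes, mesothelial and ciliated cells were higher, in each BLM-treated rat than in any control rat.

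For 8 of the 21 genes the call over all cells was lost when a rat was left out. With the edgeR adjusted p in brackets, Foxc2 was lost without BLM-treated replicate 2 (0.0506), Hoxb7 without control replicate 3 (0.0553), and Foxf1 without BLM-treated replicate 1 (0.0666), without BLM-treated replicate 3 (0.0671), without control replicate 1 (0.0507) and without control replicate 2 (0.058). Klf7 was lost without BLM-treated replicate 2 (0.108) and without control replicate 1 (0.0932), and Tbx2 without BLM-treated replicate 1 (0.0798), without BLM-treated replicate 3 (0.102), without control replicate 1 (0.136) and without control replicate 3 (0.128). Gata6 was lost without BLM-treated replicate 2 (0.104), without BLM-treated replicate 3 (0.101), without control replicate 1 (0.0964), without control replicate 2 (0.0713) and without control replicate 3 (0.14). Hoxc4 was lost without BLM-treated replicate 2 (0.0581), without BLM-treated replicate 3 (0.0674), without control replicate 1 (0.0806), without control replicate 2 (0.0842) and without control replicate 3 (0.129), and Klf8 without BLM-treated replicate 1 (0.0527), without BLM-treated replicate 2 (0.0732), without BLM-treated replicate 3 (0.0836), without control replicate 1 (0.103), without control replicate 2 (0.0684) and without control replicate 3 (0.0809).

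**Figure D2:**
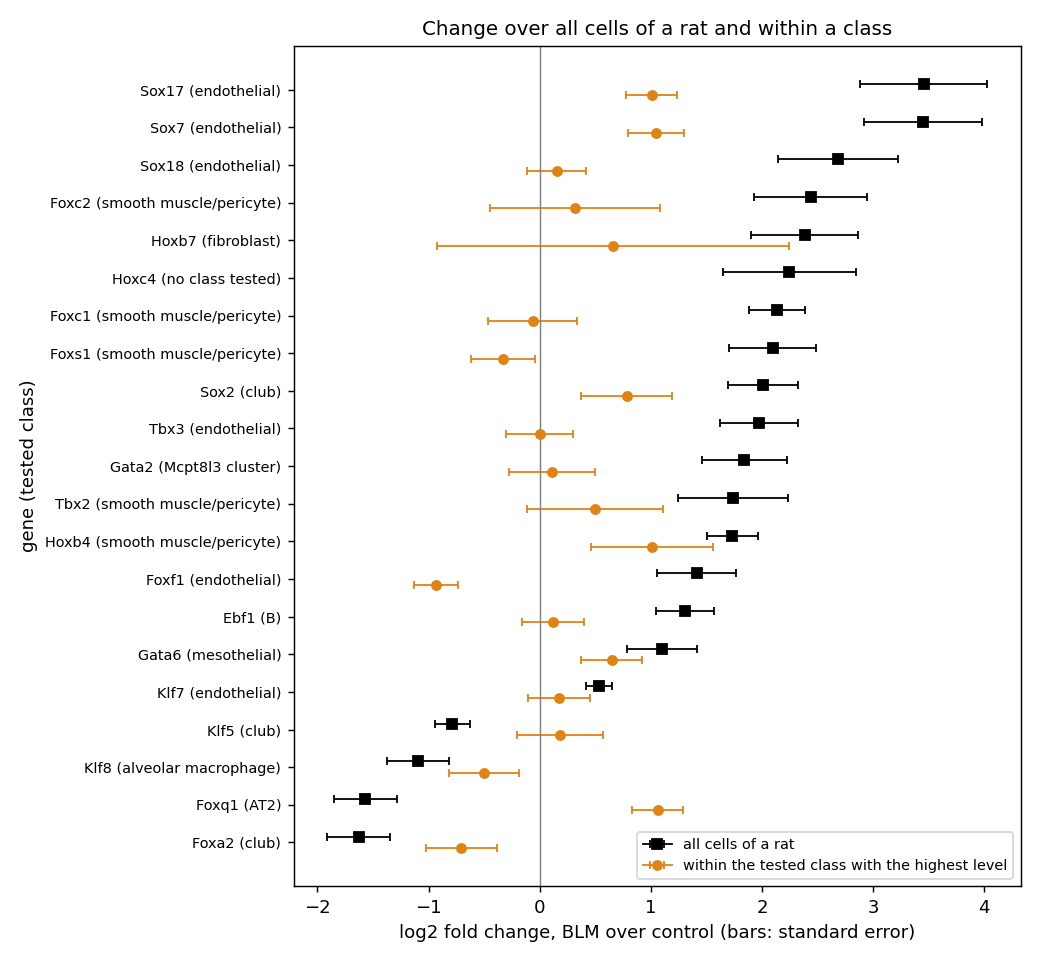
Log2 fold change, BLM over control, for the 21 factors called over all cells of a rat, and for the same factor within the tested class where its level was highest (bars, standard error). Within the class the estimate is smaller in size for each of the 20 genes that could be tested there, and it has the opposite sign and is called for Foxf1 in ECs and Foxq1 in AT2 cells.

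Within the tested class where a factor was highest, the differences were smaller. For 20 of the 21 genes a class could be tested, taken as the tested class with the highest level, and the class estimate was smaller in size in all 20. In 16 the class gave no call, Sox7 and Sox17 were called in the same direction in ECs, and Foxf1 in ECs and Foxq1 in AT2 cells in the opposite one. In ECs the log2 fold change of Sox18 was 0.15 (approximate 95% interval -0.37 to 0.68) and that of Tbx3 0.00 (approximate 95% interval -0.59 to 0.59). In smooth muscle cells or pericytes it was -0.33 (approximate 95% interval -0.90 to 0.24) for Foxs1 and -0.06 (approximate 95% interval -0.85 to 0.73) for Foxc1. In other classes the estimate could be larger than over all cells. The log2 fold change of Klf5 was -0.79 over all cells and -1.42 in alveolar macrophages. That of Ebf1 was 1.31 over all cells and at least 2.76 in ECs, with 3 UMIs taken as the control floor. The difference between the whole-lung and the class value was not tested. Over 20 classes 279 tests of 58 members were made and 17 passed, for 15 genes, where 0% to 18.3% of all genes passed in a class, while 34 members were too low for a test in any class.

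In ECs 5 of 27 members tested passed, 3 higher and 2 lower in BLM-treated rats, against 6.86% of all 6136 genes (4.06% higher and 2.8% lower). Members had a median log2 fold change of 0.09, and all genes tested 0.02. Sox17 had 617, 588 and 658 CPM in BLM-treated rats, against 299, 249.5 and 388 CPM in control rats (log2 fold change 1.01, standard error 0.23, edgeR adjusted p = 0.0121). Sox7 had 991, 768 and 773 CPM in BLM-treated rats, against 299, 338 and 552 CPM in control rats (log2 fold change 1.05, standard error 0.25, edgeR adjusted p = 0.018). Every BLM-treated rat lay above every control rat for both. The Sox7 call was lost without BLM-treated replicate 1 (0.0819), without control replicate 1 (0.0713) and without control replicate 2 (0.0616), with the edgeR adjusted p in brackets. Sox18 had 808, 534 and 533 CPM in BLM-treated rats, against 598, 382 and 763 CPM in control rats, and these ranges overlapped.

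Foxf1 and Foxp1, a repressor known from lung and immune cells, went the other way in ECs. Foxf1 had 1175, 1059 and 1200.4 CPM in BLM-treated rats, against 2727, 2011 and 2498 CPM in control rats (log2 fold change -0.93, standard error 0.20, edgeR adjusted p = 0.00802). Foxp1 had 123, 112 and 132 CPM in BLM-treated rats, against 336, 367 and 211 CPM in control rats (log2 fold change -1.06, standard error 0.24, edgeR adjusted p = 0.0126). The control rats lay above the BLM-treated rats without overlap for both. The Foxp1 call was lost without control replicate 2 (0.0949), with the edgeR adjusted p in brackets. Gata2 had 488, 401 and 508 CPM in BLM-treated rats, against 784, 440.3 and 847 CPM in control rats and did not pass (edgeR adjusted p = 0.304).

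Ebf1 was detected in ECs of BLM-treated rats alone. It had 63.8, 62.7 and 57.4 CPM in BLM-treated rats, against 0, 0 and 0 CPM in control rats, with a UMI in 135 of 1672 cells, 8.07% (exact 95% binomial interval 6.81% to 9.48%) in BLM-treated rats and in 0 of 219 cells in control rats, which allows a share of cells with a UMI of up to 1.37% (3 counts of the total). Taking 3 UMIs over the control group as the floor, Ebf1 was at least 6.75-fold higher in BLM-treated ECs (edgeR adjusted p = 0.00118). Median depths were close, 1309.5 UMIs in BLM-treated and 1179 UMIs in control ECs. Pericytes and B cells also hold Ebf1, so their markers were read in the same sums. The 11 measured markers of smooth muscle cells and pericytes summed to 169, 179.9 and 50.9 CPM in BLM-treated rats, against 224, 294 and 143 CPM in control rats, with 0 and 4 of the 11 at 0. Rgs5, a pericyte gene, had 35.0, 35.1 and 12.97 CPM in BLM-treated rats, against 187, 249.5 and 109.5 CPM in control rats, and Acta2, of smooth muscle, 41.0, 30.4 and 4.63 CPM in BLM-treated rats, against 0, 0 and 0 CPM in control rats. The 8 measured B cell markers summed to 24.3, 16.6 and 8.34 CPM in BLM-treated rats, against 0, 14.7 and 0 CPM in control rats, with 0 and 7 of the 8 at 0. ECs of BLM-treated rats held 229 Ebf1 UMIs per 100 Rgs5 UMIs, against 35.2 in smooth muscle cells or pericytes of the same rats and 222 in those of control rats, the last on 18 Rgs5 UMIs.

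**Figure D3:**
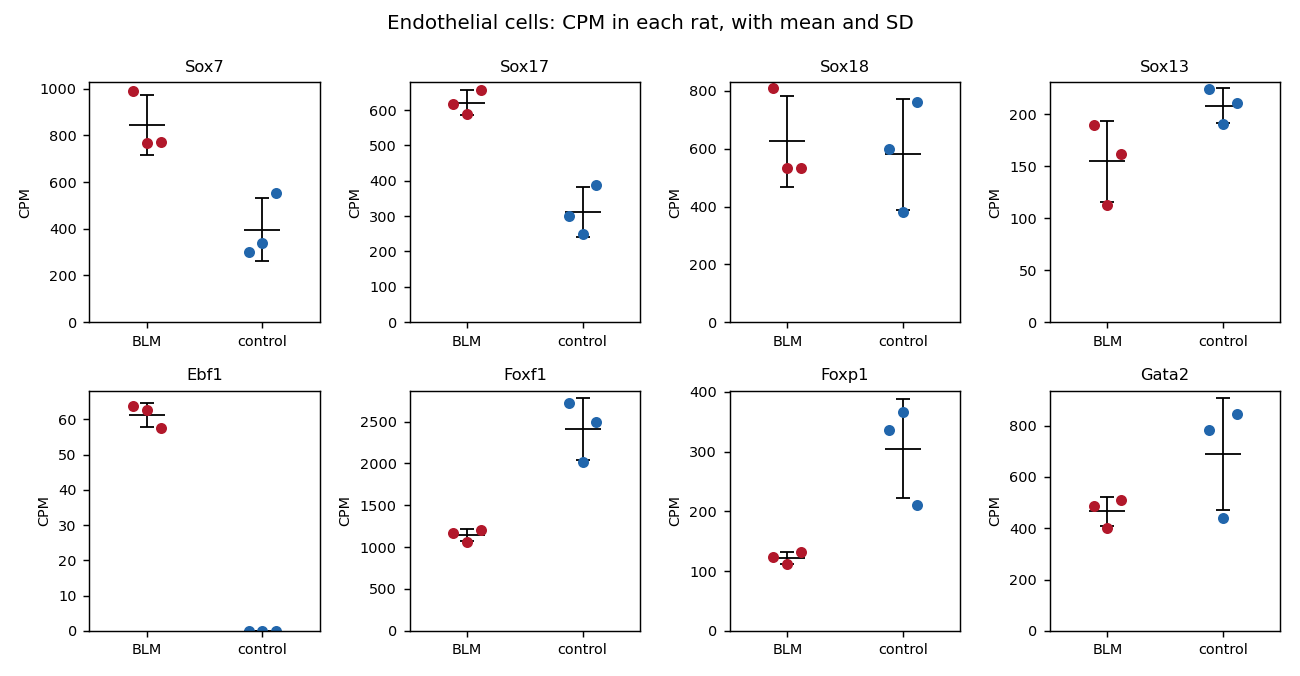
CPM of factors in ECs of each rat (points), with mean and SD, BLM left and control right, n = 3 rats each. Sox7, Sox17 and Ebf1 are higher, and Foxf1 and Foxp1 lower, in all BLM-treated rats than in any control rat.

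For the EC genes called in opposite directions that the promoter table of RefSeq holds (build GRCr8, 56 of 92 members matched), the 250 bases before the start of the gene are shown. Capitals mark a match on either strand to the letters CCGGAA for ETS factors, ACAATG for SOX factors, TGTTTA for FOX factors, AGATAA for GATA factors or CCACCC for KLF factors, which 12.6%, 11.1%, 12.1%, 10.3% and 26.1% of 33469 such windows hold. The window of Ebf1, at chr10:29601671-29601920 on the plus strand, has 1 KLF match and 36.8% GC.
Ebf1: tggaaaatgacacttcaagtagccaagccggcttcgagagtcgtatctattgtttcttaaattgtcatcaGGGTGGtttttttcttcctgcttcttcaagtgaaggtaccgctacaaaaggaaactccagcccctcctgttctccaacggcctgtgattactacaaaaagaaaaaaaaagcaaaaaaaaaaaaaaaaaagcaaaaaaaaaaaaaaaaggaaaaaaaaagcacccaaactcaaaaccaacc
The window of Foxp1, at chr4:133353281-133353530 on the minus strand, has 1 FOX match and 49.6% GC.
Foxp1: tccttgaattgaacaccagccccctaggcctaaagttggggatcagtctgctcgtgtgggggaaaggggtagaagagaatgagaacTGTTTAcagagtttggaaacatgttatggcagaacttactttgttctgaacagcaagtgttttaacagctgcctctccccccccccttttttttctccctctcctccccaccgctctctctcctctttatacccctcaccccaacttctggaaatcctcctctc
Neither window holds the ETS, SOX or GATA letters, and a match is a description of the letters alone.

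ECs were clustered again without the factor genes, into 7 subclusters called here by a leading gene. The Gpx2 subcluster, led also by Hpgd and Tmem100, took 0.261%, 0% and 0% of the ECs of BLM-treated rats, against 46.4%, 39.0% and 64.7% of those of control rats. The Gpihbp1 subcluster, of 586 cells, came from BLM-treated rats alone. Foxf1 stood at 3110.5 CPM and Gata2 at 957 CPM in the Gpx2 subcluster, above the other 6, and Ebf1 had no UMI there. Ebf1 was highest at 149 CPM in the Pi16 subcluster, of 183 cells of BLM-treated and 2 of control rats, as was Sox17 at 766 CPM. The Fn1 subcluster, led also by the arterial gene Gja5, held Gata6 at 387 CPM and Foxc1 at 87.0 CPM, and in the other 6 Foxc1 did not exceed 25.6 CPM. The Ccl6 subcluster, of 94 cells of BLM-treated and 12 of control rats, was led by Ccl6, Laptm5, Lyz2 and Gpnmb, which are macrophage genes, and is given no cell type name. Tbx3 was lowest in the Fn1 subcluster at 31.6 CPM and highest in the Ntrk2 subcluster at 177 CPM.

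**Figure D4:**
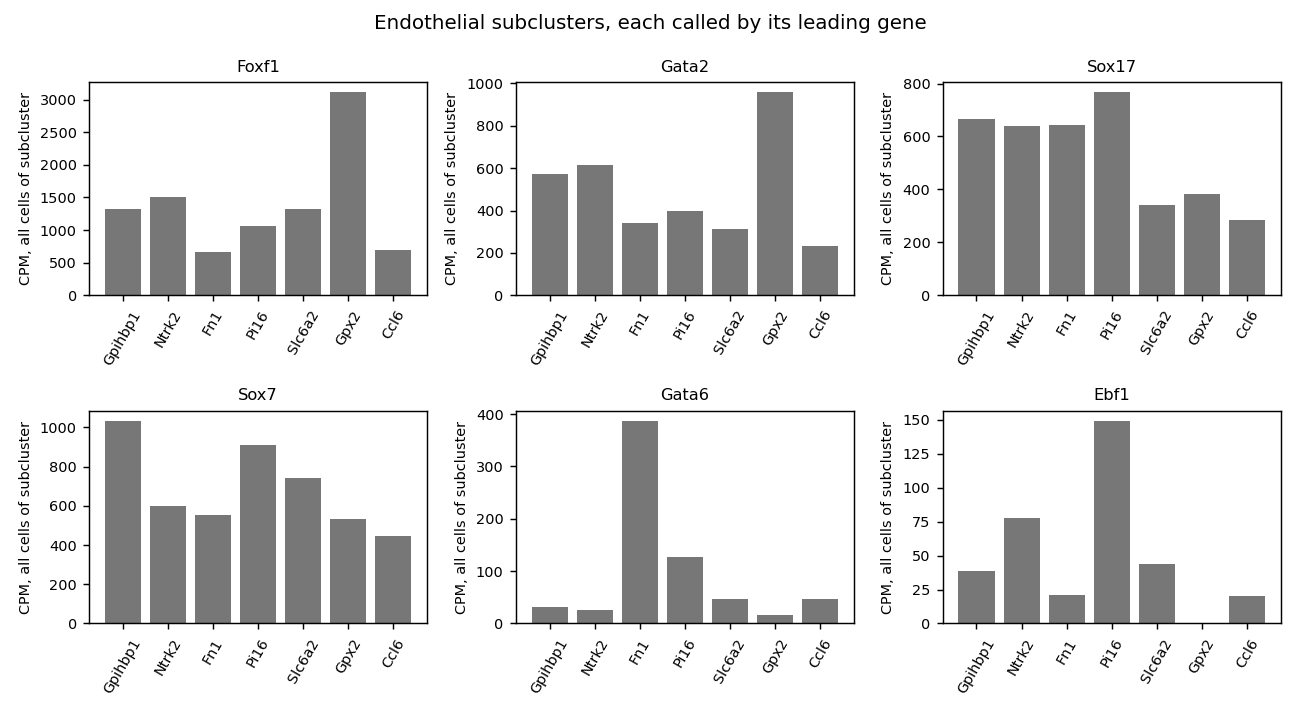
CPM of factors over all cells of each of the 7 EC subclusters, called by a leading gene, with no error since few control rats had 10 cells in a subcluster. The Ccl6 subcluster is led by macrophage genes. Foxf1 and Gata2 are highest in the Gpx2 subcluster, Gata6 in the Fn1 subcluster and Ebf1 in the Pi16 subcluster.

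Since the groups of rats filled different subclusters, the EC test was run without the Gpx2 subcluster, an alternative chosen after seeing the data, which left 93 control ECs. Foxf1 then had 1173, 1059 and 1200.4 CPM in BLM-treated rats, against 1759.5, 1889.7 and 1326 CPM in control rats, a log2 fold change of -0.32 (edgeR adjusted p = 0.623), and its call was lost. Sox7 had 1.24 (edgeR adjusted p = 0.0509) and lost its call as well. Sox17 kept it with 1.09 (edgeR adjusted p = 0.041), Foxp1 with -1.19 (0.0435) and Ebf1 with an adjusted p of 0.0168. The test was likewise run without the Ccl6 subcluster, also chosen after seeing the data. It left 1578 cells of BLM-treated and 207 of control rats, and the 5 EC calls were kept, Foxf1 with -0.97 (edgeR adjusted p = 0.00281), Foxp1 with -1.10 (0.00358), Sox7 with 0.99 (0.0119), Sox17 with 0.94 (0.00989) and Ebf1 with an adjusted p of 0.000459. Markers of other cells also differed in the sums over all ECs. The 10 AT2 markers summed to 108, 149 and 107 CPM in BLM-treated rats, against 784, 646 and 695 CPM in control rats, and the 12 markers of interstitial macrophages to 883, 857 and 550.2 CPM in BLM-treated rats, against 74.7, 205 and 114 CPM in control rats. The 7 markers of lymphatic ECs summed to 200.6, 161 and 179.7 CPM in BLM-treated rats, against 1793, 2011 and 961 CPM in control rats, with 0 and 5 of the 7 at 0. Their part in the EC results was not tested.

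No member was called in a stromal class. Of 42 tested in fibroblasts none passed with edgeR (7 at an unadjusted p under 0.05), against 1.22% of all genes, with 2 control rats that had enough cells, of 47 fibroblasts of control rats in all. Gata6 had 122, 156 and 121 CPM in BLM-treated rats, against 25.1 and 33.2 CPM in control rats (log2 fold change 2.38, standard error 0.54, edgeR adjusted p = 0.0638). Tbx4 had 80.8, 57.1 and 152 CPM in BLM-treated rats, against 352 and 316 CPM in control rats (log2 fold change -1.60, standard error 0.46, edgeR adjusted p = 0.134). The groups did not overlap for either gene, in opposite directions, but the same held for 21 of the 42 members tested in fibroblasts. The share over all genes of the class was not computed. In smooth muscle cells or pericytes none of 27 passed with edgeR (3 at an unadjusted p under 0.05), against 3.28% of all genes, again with 2 control rats, and Ebf1 had 305, 223 and 339.9 CPM in BLM-treated rats, against 355 and 191 CPM in control rats. In mesothelial cells none of 12 passed with edgeR (5 at an unadjusted p under 0.05), against 2.17%. Foxf1 had 229, 161 and 179.9 CPM in BLM-treated rats, against 478, 343 and 279.8 CPM in control rats there (log2 fold change -1.04, standard error 0.26, edgeR adjusted p = 0.0591), and Gata4 44.9, 75.0 and 57.7 CPM in BLM-treated rats, against 142, 132 and 93.3 CPM in control rats (log2 fold change -1.06, standard error 0.31, edgeR adjusted p = 0.114). In cluster 18 none of 5 passed with edgeR (0 at an unadjusted p under 0.05), against 5.54%, and Tbx4 had 399, 541 and 579 CPM in BLM-treated rats, against 491, 726 and 487 CPM in control rats.

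Stromal subclusters, made without the factor genes, differed in their factors. The Higd1b subcluster of smooth muscle cells or pericytes held Tbx4 at 463 CPM, Tbx5 at 248 CPM and Ebf1 at 418 CPM. The Actc1 subcluster, led also by the contractile gene Cnn1, held Tbx4 at 76.3 CPM and Ebf1 at 197 CPM. Among fibroblasts the Coch subcluster, led also by Wif1, held Foxf1 at 492 CPM and Ebf1 at 6.99 CPM. The Ccl11 and Esm1 subclusters, with 454 and 335 cells of BLM-treated rats and 5 and 2 of control rats, held Gata6 at 154 and 195 CPM, and Tbx4 at 60.6 and 37.0 CPM. The Cxcl14 subcluster, of 51 and 26 cells, held Gata6 at 32.2 CPM, Tbx4 at 257 CPM and Klf15, a metabolic factor, at 129 CPM. The fibroblasts of the groups thus lay in different subclusters, which differ in Gata6 and Tbx4.

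In AT2 cells 2 of 26 members tested passed, both higher in BLM-treated rats, against 1.27% of all genes (0.836% higher and 0.434% lower). Members had a median log2 fold change of 0.12, and all genes tested -0.01. BLM-treated replicate 1 had too few AT2 cells and did not enter. Foxq1, known from epithelial polarity and mucin genes, had 299 and 289.9 CPM in BLM-treated rats, against 133, 171 and 122 CPM in control rats (log2 fold change 1.06, standard error 0.23, edgeR adjusted p = 0.0355). It was higher per AT2 cell and lower over all cells. The call was lost without BLM-treated replicate 2 (0.2), without BLM-treated replicate 3 (0.131), without control replicate 1 (0.127) and without control replicate 3 (0.115), with the edgeR adjusted p in brackets. Sox9 had 20.9 and 103 CPM in BLM-treated rats, against 5.60, 6.96 and 8.19 CPM in control rats (log2 fold change 3.12, standard error 0.65, edgeR adjusted p = 0.0291). The BLM-treated rats differed widely from each other, and the call was lost without BLM-treated replicate 3 (0.614), with the edgeR adjusted p in brackets. Sox9 had a UMI in 17 of 114 cells, 14.9% (exact 95% binomial interval 8.93% to 22.8%) of BLM-treated rats and in 13 of 735 cells, 1.77% (exact 95% binomial interval 0.945% to 3.01%) of control rats, intervals that cover counting error only. Median depths were 2664.5 UMIs in BLM-treated and 3507 UMIs in control AT2 cells. Tuft cells and club cells also hold Sox9. The 5 measured tuft markers summed to 0 and 12.9 CPM in BLM-treated rats, against 29.1, 6.96 and 20.9 CPM in control rats, with 3 and 0 of the 5 at 0. The 8 club cell markers summed to 15995 and 26152 CPM in BLM-treated rats, against 8326, 10551 and 7063 CPM in control rats, and their part in the Sox9 and Foxq1 results was not tested.

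In club cells none of 12 members passed with edgeR (4 at an unadjusted p under 0.05), against 4.79% of all genes. Sox9 had 106, 98.1 and 87.3 CPM in BLM-treated rats, against 0, 90.6 and 0 CPM in control rats (log2 fold change 2.82, standard error 0.84, edgeR adjusted p = 0.082), with 2 control rats at 0 and 1 within the range of the BLM-treated rats. Sox2 had 140.3, 107 and 102 CPM in BLM-treated rats, against 99.4, 22.7 and 64.3 CPM in control rats, which overlapped. Foxa2 had 82.1, 98.1 and 77.6 CPM in BLM-treated rats, against 99.4, 159 and 146 CPM in control rats without overlap (edgeR adjusted p = 0.292). Klf5 in AT2 cells had 369 and 387 CPM in BLM-treated rats, against 372, 395 and 424 CPM in control rats.

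Klf3, a repressor that binds CACCC boxes, was called in 3 myeloid classes and not in the same direction. In alveolar macrophages, the resident cells of the airspace, it had 155, 152 and 161 CPM in BLM-treated rats, against 87.6, 74.5 and 75.9 CPM in control rats (log2 fold change 0.94, standard error 0.12, edgeR adjusted p = 0.000791). In interstitial macrophages it had 158, 235 and 219 CPM in BLM-treated rats, against 344, 312 and 386 CPM in control rats (log2 fold change -0.65, standard error 0.22, edgeR adjusted p = 0.0485). In neutrophils it had 519, 560.2 and 584 CPM in BLM-treated rats, against 1115, 1037 and 899 CPM in control rats (log2 fold change -1.02, standard error 0.21, edgeR adjusted p = 0.00696). Thus it was higher in alveolar macrophages and lower in the other two classes of BLM-treated rats, without overlap in any. The calls in alveolar macrophages and neutrophils were kept under each of the 15 other settings run for every class, but that in alveolar macrophages was not kept in 1 of their clusters alone, the one led by Prodh2. That in interstitial macrophages was lost under 9 of 15, among them DESeq2 (adjusted p = 0.058) and, with the edgeR adjusted p in brackets, without BLM-treated replicate 1 (0.102), without control replicate 1 (0.188), without control replicate 2 (0.0765) and without control replicate 3 (0.268). The BLM effect on Klf3 in alveolar minus that in interstitial macrophages was 1.46 (standard error 0.23, edgeR adjusted p = 2.76e-06).

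**Figure D5:**
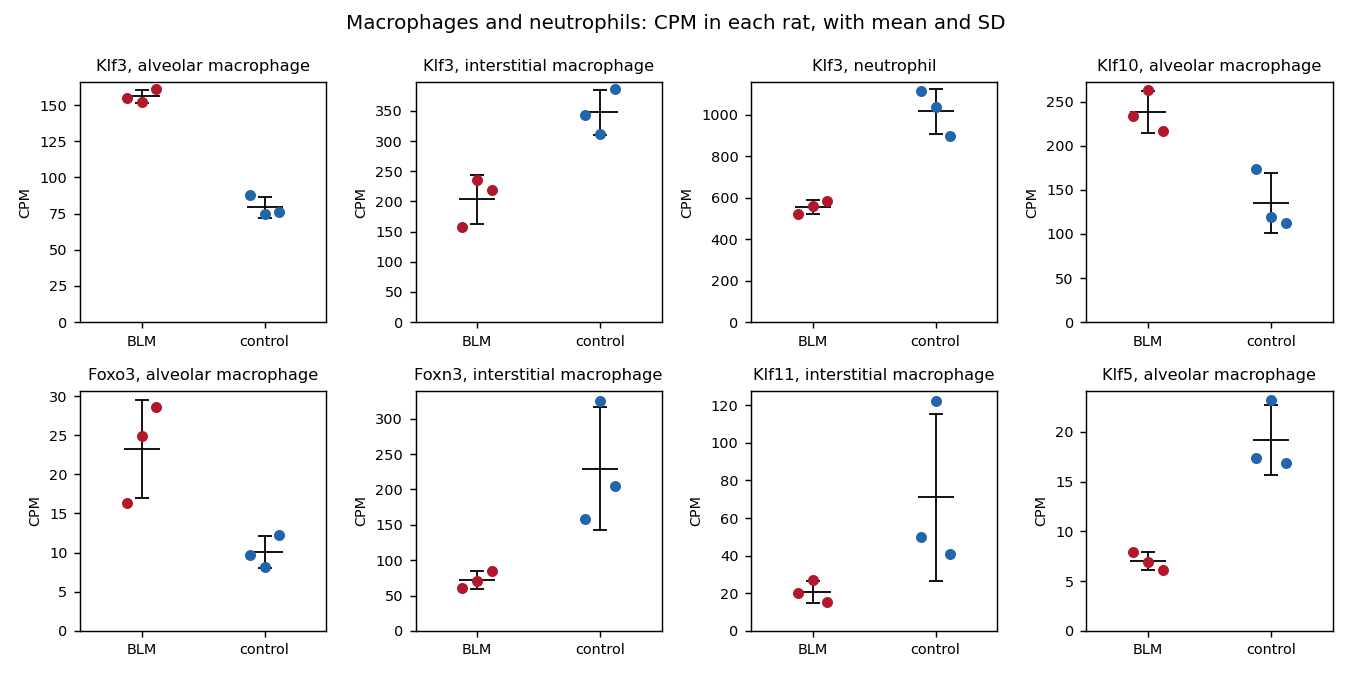
CPM of factors in alveolar macrophages, interstitial macrophages and neutrophils of each rat (points), with mean and SD, BLM left and control right, n = 3 rats each. Klf3 is higher in alveolar macrophages and lower in interstitial macrophages and neutrophils of all BLM-treated rats than of any control rat.

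In alveolar macrophages 6 of 26 members tested passed, 5 higher and 1 lower in BLM-treated rats, against 11.3% of all 9241 genes (6.63% higher and 4.7% lower). Members had a median log2 fold change of 0.21, and all genes tested -0.01. Klf10, an early response gene of TGF-beta, had 234, 264 and 217 CPM in BLM-treated rats, against 174, 119 and 112 CPM in control rats (log2 fold change 0.80, standard error 0.18, edgeR adjusted p = 0.0175). Klf16 had 59.1, 51.5 and 73.9 CPM in BLM-treated rats, against 37.6, 41.0 and 30.7 CPM in control rats (log2 fold change 0.75, standard error 0.16, edgeR adjusted p = 0.0137). Foxo3 had 16.3, 24.9 and 28.6 CPM in BLM-treated rats, against 9.65, 8.20 and 12.3 CPM in control rats (log2 fold change 1.11, standard error 0.25, edgeR adjusted p = 0.0198). These 3 and Hoxb4 were higher in each BLM-treated rat than in any control rat. Hoxb4 had 7.96, 7.46 and 8.17 CPM in BLM-treated rats, against 3.96, 1.37 and 2.25 CPM in control rats (log2 fold change 1.49, standard error 0.35, edgeR adjusted p = 0.0238), from 71 and 34 UMIs. With the edgeR adjusted p in brackets, Klf10 was lost without BLM-treated replicate 1 (0.0635) and without BLM-treated replicate 2 (0.0911), Klf16 without control replicate 1 (0.0528), Foxo3 without BLM-treated replicate 2 (0.0828), without BLM-treated replicate 3 (0.0636) and without control replicate 1 (0.0862), and Hoxb4 without BLM-treated replicate 1 (0.0792), without BLM-treated replicate 2 (0.0874), without BLM-treated replicate 3 (0.0624) and without control replicate 3 (0.0885).

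Klf5 was the member that fell in alveolar macrophages. It had 7.96, 6.97 and 6.12 CPM in BLM-treated rats, against 17.3, 23.2 and 16.9 CPM in control rats (log2 fold change -1.42, standard error 0.23, edgeR adjusted p = 0.00347), without overlap. Sftpc, the surfactant gene of AT2 cells, was also lower, with 6.06, 31.1 and 14.7 CPM in BLM-treated rats, against 120.0, 439 and 98.7 CPM in control rats, and the 10 AT2 markers summed to 169, 212 and 169 CPM in BLM-treated rats, against 329, 828 and 290.3 CPM in control rats, with none at 0. Alveolar macrophages held 36.2 Klf5 UMIs per 100 Sftpc UMIs in BLM-treated rats and 12.3 in control rats. AT2 cells held 0.304 and 0.305 in BLM-treated and control rats.

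The alveolar macrophage class joins 3 large clusters that the groups filled unequally, so its calls were also run in single clusters, chosen after seeing the data. In the cluster led by Slc39a2, of 941 cells of BLM-treated and 1535 of control rats, Klf3 (0.84, edgeR adjusted p = 0.0009), Klf10 (0.74, 0.0159) and Klf5 (-1.16, 0.0234) kept their calls. In the cluster led by Olr1 and Fabp4, of 964 and 149 cells, Klf3 (0.90, edgeR adjusted p = 0.0214) and Klf5 (-2.10, 0.0125) kept theirs. In the cluster led by Prodh2, of 328 and 2049 cells, Klf3 had 0.63 (edgeR adjusted p = 0.24) and Klf5 -2.17 (0.241), without a call. Foxo3 had 0.48 (edgeR adjusted p = 0.51) in the Slc39a2 cluster and 1.26 (0.157) in the Olr1 cluster, and Klf16 was called in none of the 3.

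In interstitial macrophages 3 of 15 members tested passed, all lower in BLM-treated rats, against 17.6% of all 6105 genes (9.17% higher and 8.47% lower). Members had a median log2 fold change of -0.15, and all genes tested 0.02. Besides Klf3, Foxn3, a repressor linked to cell cycle checkpoints, had 59.95, 70.4 and 84.8 CPM in BLM-treated rats, against 158, 326 and 205 CPM in control rats (log2 fold change -1.48, standard error 0.27, edgeR adjusted p = 0.00124). Klf11, a repressor induced by TGF-beta, had 19.98, 27.0 and 15.5 CPM in BLM-treated rats, against 50.2, 122 and 41.1 CPM in control rats (log2 fold change -1.39, standard error 0.46, edgeR adjusted p = 0.0456). The groups did not overlap for either gene. Klf11 was lost without control replicate 1 (0.107), without control replicate 2 (0.28) and without control replicate 3 (0.0713), with the edgeR adjusted p in brackets. This class joins a cluster led by Spp1, of 970 cells of BLM-treated and 10 of control rats, and one led by C1qc, of 510 and 182 cells. Over the BLM-treated rats Foxn3 stood at 53.9 CPM in the Spp1 cluster and 146 CPM in the C1qc cluster, and Klf3 at 189 and 338 CPM. In the C1qc cluster alone, an alternative chosen after seeing the data, neither call was kept. Foxn3 then had 128, 166 and 123 CPM in BLM-treated rats, against 159, 315 and 236 CPM in control rats (-0.67, edgeR adjusted p = 0.334) and Klf3 -0.17 (0.839). The 11 alveolar macrophage markers in the class summed to 3088, 2834 and 3106 CPM in BLM-treated rats, against 1626, 1833 and 2028 CPM in control rats.

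In neutrophils Klf3 was the 1 member called of 8 tested, against 18.3% of all 3324 genes (9.78% higher and 8.54% lower). Members had a median log2 fold change of -0.19, and all genes tested 0.01. Klf10 had 287, 218 and 232 CPM in BLM-treated rats, against 405, 376 and 264 CPM in control rats and did not pass (edgeR adjusted p = 0.0876). The 9 neutrophil markers summed to 14711, 8656 and 17061 CPM in BLM-treated rats, against 36779, 31460 and 36649 CPM in control rats, and the 11 alveolar macrophage markers to 4104, 4001 and 3649.7 CPM in BLM-treated rats, against 1588, 1186 and 1815 CPM in control rats. The neutrophil markers thus fell along with Klf3 and the alveolar macrophage markers rose, and their part in the result was not tested.

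The same windows of Klf3 and Foxn3, on which the myeloid results turn, are shown for comparison with those of Ebf1 and Foxp1. That of Klf3, at chr14:43850827-43851076 on the minus strand, has 3 KLF matches, 1 GATA match and 52.0% GC.
Klf3: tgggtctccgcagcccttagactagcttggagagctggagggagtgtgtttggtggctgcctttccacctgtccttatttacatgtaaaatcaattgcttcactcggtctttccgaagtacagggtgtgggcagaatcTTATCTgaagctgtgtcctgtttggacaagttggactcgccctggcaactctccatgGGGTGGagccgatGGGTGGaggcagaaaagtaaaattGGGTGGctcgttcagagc
That of Foxn3, at chr6:124572041-124572290 on the minus strand, has 1 ETS and 1 KLF match and 76.8% GC.
Foxn3: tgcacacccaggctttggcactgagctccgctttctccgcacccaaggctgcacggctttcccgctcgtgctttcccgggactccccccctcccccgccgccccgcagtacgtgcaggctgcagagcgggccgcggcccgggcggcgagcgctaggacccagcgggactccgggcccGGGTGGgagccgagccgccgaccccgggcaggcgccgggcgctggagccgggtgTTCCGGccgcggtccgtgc

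Whether the BLM effect differed between classes was tested with the rat as a block, for 7 pairs of classes, and 8 of 220 tests of members passed. Foxp1 in ECs minus smooth muscle cells or pericytes gave -2.06 (standard error 0.49, edgeR adjusted p = 0.0359), where 1.31% of all genes passed, and in ECs minus alveolar macrophages -1.79 (standard error 0.37, edgeR adjusted p = 0.00312), where 3.05% passed. Its own estimate was 0.97 in smooth muscle cells or pericytes. Ebf1 passed in the same pairs. The Foxp1 difference from smooth muscle cells or pericytes was lost without BLM-treated replicate 2 (0.0837) and without BLM-treated replicate 3 (0.0677), with the edgeR adjusted p in brackets. Between alveolar and interstitial macrophages 4 members passed, where 17.3% of all genes did: Klf3, Foxn3 by 1.26, Klf11 by 1.68 and Foxo3 by 2.31 on the log2 scale. Klf11 was lost there without control replicate 2 (0.15). No member passed with edgeR between ECs and fibroblasts (4 at an unadjusted p under 0.05, against 1.71% of all genes called), fibroblasts and smooth muscle cells or pericytes (4, 1.13%), T and B cells (0, 0.0203%) or T and NK cells (0, 0%).

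No member was called in a lymphoid class. With edgeR none passed of 14 in T cells (2 at an unadjusted p under 0.05, against 0.326% of all genes called), 15 in NK cells (1, 0.0462%), 13 in B cells (1, 0.467%) or 5 in the Il2ra cluster (1, 0.149%). Tbx21 in NK cells had 864, 706 and 698 CPM in BLM-treated rats, against 1016, 851 and 588 CPM in control rats, a log2 fold change of -0.08 (approximate 95% interval -0.47 to 0.31). Gata3 in the Il2ra cluster had 971, 1035 and 989.6 CPM in BLM-treated rats, against 1164, 1609.9 and 1644 CPM in control rats (log2 fold change -0.50, standard error 0.20, edgeR adjusted p = 0.381), without overlap. Klf3 in T cells had 694, 758 and 729 CPM in BLM-treated rats, against 945, 982 and 957 CPM in control rats (log2 fold change -0.38, standard error 0.15, edgeR adjusted p = 0.44), also without overlap. Ebf1 in B cells had 426, 244 and 509 CPM in BLM-treated rats, against 424, 263 and 375 CPM in control rats, which overlapped. Foxp3 had a UMI in 29 of 524 cells, 5.53% (exact 95% binomial interval 3.74% to 7.85%) of the Il2ra cluster in BLM-treated rats and in 3 of 111 cells, 2.70% (exact 95% binomial interval 0.561% to 7.70%) in control rats, and these intervals overlap. In the remaining classes edgeR called none of 10 members in monocytes (1 at an unadjusted p under 0.05, against 0.444% of all genes called), 10 in the Gjb2 cluster (0, 1.23%), 6 in cycling cells (2, 5.99%), 3 in dendritic cells (0, 0.0461%), 2 in plasmacytoid dendritic cells (0, 0.463%) or 1 in the Mcpt8l3 cluster (0, 0%).

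Other genes of the same programmes were read by the same tests. Of 15 further endothelial transcription factors tested in ECs 1 rose and 1 fell, against 6.86% of all genes called there: Fli1, an ETS factor, was higher by 1.03 (standard error 0.23, edgeR adjusted p = 0.00997), and Epas1, a hypoxia factor, fell by 0.74 (standard error 0.19, edgeR adjusted p = 0.0238). Of 13 genes known as targets of Klf2 and Klf4 in vessels, 2 rose in ECs, Slc9a3r2 by 1.08 and Cav1 by 0.73, and Calcrl fell by 1.38, in the same test. Klf2 and Klf4 themselves were not among the 92 genes that the rule took, nor were Klf6, Foxj1, Sox4, Gata1 and Hoxa5. They were not analysed here, so the family counts and the leading classes leave these lineage factors out. Of 18 stromal factors tested in fibroblasts 1 passed, against 1.22% of all genes, Tcf21, a lung fibroblast factor, which fell by 1.28. In mesothelial cells 1 of 3 passed, against 2.17%, namely Wt1, which rose by 1.19. In smooth muscle cells or pericytes 2 of 10 passed, against 3.28%, Snai1, higher by 1.99, and Zeb2, which fell by 0.95.

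Of 12 myeloid factors tested in alveolar macrophages 2 rose, where 11.3% of all genes were called, Cebpa by 1.02 and Batf3 by 0.72, and the lipid receptor gene Nr1h3 fell by 0.59. In interstitial macrophages 2 of 10 rose, against 17.6% of all genes called, Nr1h3 by 2.62 and Pparg, a factor of alveolar macrophages, by 2.51. In neutrophils 2 of 7 rose, against 18.3% of all genes called, Pparg by 1.69 and Cebpa by 0.86, and Rara fell by 0.996. The 11 alveolar macrophage markers were also higher in the sums of the same interstitial macrophages and neutrophils, and their part in the rise of Pparg and Nr1h3 was not tested. Of 10 Foxo target genes in alveolar macrophages 2 rose, Irs2 by 1.16 and Sod2 by 0.81. In interstitial macrophages 0 rose and 2 fell of 10 (median log2 fold change -0.65), and in neutrophils 2 rose and 3 fell of 7 (-0.34). Besides, 2 of 8 rose in ECs (6.86% of all genes called) and 2 of 8 in smooth muscle cells or pericytes (3.28%). In mesothelial cells 1 of 7 rose (2.17%) and in cycling cells 1 of 4 (5.99%). The other classes gave no call on this list, among them 0 of 11 in T cells, 0 of 10 in B cells and 0 of 9 in fibroblasts. Of 11 mitotic targets of Foxm1 in cycling cells 2 fell, against 5.99% of all genes called, Kif20a by 0.93 and Cenpf by 0.79. Of 10 genes linked to Tbx21 in NK cells 1 rose, against 0.0462% of all genes called, the chemokine gene Ccl3, by 1.43. In T cells 1 of 6 rose (0.326% of all genes called), again Ccl3, by 1.40. Genes of this list also rose in other classes, 3 of 5 in alveolar macrophages (11.3%), 2 of 3 in cycling cells (5.99%) and 1 of 3 in neutrophils (18.3%). In smooth muscle cells or pericytes 1 of 3 fell (3.28%). Each of these passed edgeR's test with adjustment over all genes of its class. The median log2 fold change was 0.03 over the endothelial list in ECs, 0.21 over the stromal list in fibroblasts, 0.15 over the myeloid list in alveolar macrophages and 0.29 over the Foxo list there.

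The 28 members with under 100 UMIs were given no class. They included 7 Hox and 6 Sox genes, and the lowest was Foxb1 with 5 UMIs. Tbxt, the brachyury gene of the early embryo, had 87 UMIs, of which 80.5% lay in ciliated cells, at 233, 136 and 37.9 CPM in the 3 BLM-treated rats. Klf1, a factor of red blood cells, had 40 UMIs. Of the members with a class, Sox5, Sox8, Ebf3, Hoxa2, Hoxc4 and Foxm1 were too low for a test in any class and are described by their levels alone.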

How the data were processed

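Whole transcriptome libraries of single lung cells from 3 BLM-treated and 3 control rats, each a separate animal per the labels, were deposited by the authors as 1 table of UMI counts per gene and cell. Aligner, counting tool and cell filter were not given in the sources used here. A mouse build, mm9, is named in the processing notes of the submitters. Cell names end in N or F with a replicate number, which the labels do not explain. N was read as control and F as BLM-treated because the cells of each letter add up to the number the study gives for that group, and the group of every value rests on this match. Genes overlapping on opposite strands may share counts. The members and gene lists were chosen with earlier results of these data known, and 1 gene of the myeloid list is not reported here.

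Counts were scaled to 10000 per cell, and 2000 variable genes without the members gave 30 principal components and Leiden clusters at resolution 1 (scanpy 1.11.5, leidenalg 0.10.2, Python 3.11.15). A named cluster had at least 3 markers of a class above a log2 fold of 1 over the other clusters, in at least 5% of its cells. The mean log2 fold of the class markers had to be at least 1, and 1.5 above that of the next class. At least 1 marker had to be among the 10 leading genes. Clusters that did not meet these rules kept a leading gene, or a number, as name. No doublet caller was run. UMIs were summed per rat and class, for rats with at least 10 cells, and tested with edgeR 4.0.16 in R 4.3.3 (filterByExpr, TMM, quasi-likelihood test, Benjamini-Hochberg adjustment over all genes of the class, threshold 0.05). Differences between classes were tested as an interaction with the rat as a block. Tests were checked on simulated counts, in which most of the smaller changes, and in fibroblasts and between classes most of the larger ones too, were missed, so that a missing call does not show that a factor did not change. The authors' study tested cells; here rats are the replicates. Intervals of shares and floors of 3 counts cover counting error only, and approximate 95% intervals of fold changes are normal. Named genes were all members called, the 3 highest in a class, the one with most UMIs in a family, and known lineage factors. Results were recomputed with DESeq2 1.42.0, with scaling by RLE, without the filter, with each rat left out in turn, with the replicate number as a block, in cells of at least 500 UMIs, without the 5% of cells with most UMIs, at resolutions 0.5 and 2, and with members kept in the clustering. Single clusters, and ECs without the Gpx2 or the Ccl6 subcluster, were added after seeing the data.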

Additional observations from a re-analysis of the deposited data

Results flagged for a closer look

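In 8 of 220 tests of members the BLM effect differed between a pair of classes (edgeR's quasi-likelihood test of the interaction with the rat as a block, adjusted over all genes of the pair). Between alveolar and interstitial macrophages the difference of the log2 fold changes was 1.46 for Klf3, 1.26 for Foxn3, 1.68 for Klf11 and 2.31 for Foxo3, the 4 that passed of 27 members tested, where 17.3% of all genes passed. For Klf3 both classes were called, in opposite directions, while Foxn3 was -0.08 in alveolar and -1.48 in interstitial macrophages. Foxp1 differed by -1.79 between ECs and alveolar macrophages and by -2.06 between ECs and smooth muscle cells or pericytes, pairs in which 3.05% and 1.31% of all genes passed. Ebf1 differed by 10.94 and 7.34 in the same pairs, but these fitted values depend on the prior count, since control ECs had no Ebf1 UMI, and they are no bound. In the interstitial macrophages and the ECs the groups of rats filled different clusters, and the part of this in the differences was not tested.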

How the results depend on the processing

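Of the 21 calls over all cells 13, of the 17 in classes 7, and of the 8 between classes 6 were kept under every other setting fixed for all classes that could be run, and none turned its direction. Of the 7 in classes, Foxf1 in ECs (without the Gpx2 subcluster), Foxn3 in interstitial macrophages (in the C1qc cluster) and Klf3 and Klf5 in alveolar macrophages (in the Prodh2 cluster) lost the call in the settings added after seeing the data. The count over all cells was 15 to 19 with a rat left out, against 21. In classes it was 10 to 16 with a rat left out, against 17, and 27 without the filter on low counts, of which 15 were the same. Between classes it was 5 to 9 with a rat left out, against 8. The class that led was kept for 41 of 64 genes after thinning, and for 48 to 61 under the other alternatives. These counts take in the genes led by tuft cells. That class may not have met the minimum of cells after thinning or in cells of at least 500 UMIs. Same-numbered rats of the groups had correlations of 0.116, -0.0788 and -0.124, and differently numbered ones of -0.109 to 0.164. With 3 rats in each group this cannot decide whether the numbers are a pairing, and the main tests used none. With the replicate number as a block the counts were 16 over all cells and 18 in classes, 16 and 14 of them the same, and Foxq1 in AT2 cells had an edgeR adjusted p of 0.0738. Where a rat left out made 1 BLM-treated rat the only one in AT2 cells, or 1 control rat the only one in a stromal class, that lone rat was assumed to vary like the others. Leaving out a rat could not be run for each AT2 or interstitial macrophage call. Control ECs, fibroblasts and smooth muscle cells were few, and factors at a few CPM lie near the limit of counting.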

Other observations

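Lung lymphatic ECs, seen as 105 cells at a finer clustering, 95 of BLM-treated and 10 of control rats, also held low factors that no class could be named for. Hoxd9 stood at 65.2 CPM there and had 53 UMIs in all, and Tbx1, known from lymphatic growth, stood at 78.2 CPM with 88 UMIs in all. The mesothelial subclusters differed as well. The Wt1 subcluster, of 348 cells of BLM-treated and 6 of control rats, held Gata4 at 59.8 CPM, Gata6 at 234 CPM and Foxf1 at 119.6 CPM. The Prr15 subcluster, of 285 and 105 cells, held Gata4 at 90.2 CPM, Gata6 at 136 CPM and Foxf1 at 322 CPM. These levels are descriptions over all cells of a subcluster, without a test.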
